A study of Mus musculus with 4 samples.

Results

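Cytosolic ribosomal protein genes were read for CpG methylation in the livers of 4 mice by enhanced reduced representation bisulfite sequencing (ERRBS). As the paper describes ERRBS, the enzymes TaqαI and MspI cut the DNA, MspI at CCGG. Bisulfite then turns unmethylated cytosines into T. Members were the autosomal protein-coding genes of the RefSeq annotation with symbols of the form Rpl or Rps plus a number, and Rplp0, Rplp1, Rplp2 and Rpsa. Of 20558 autosomal protein-coding genes, 77 carried such a symbol and 74 of these had a cytosine within 2000 bp of a transcription start site (TSS) or in the gene that was read at least 10 times in every mouse. Rpl32l, Rps27 and Rps29 had none, and 4 further members lie on chromosome X. The Mixed mice were of an undefined background that includes C57BL/6J and other strains, and the B6 mice were C57BL/6. There were 2 mice in each group, and all were males of 6 to 8 weeks on a normal diet, with no treatment named. Each strain came from its own institution, so an effect of housing cannot be told apart from one of strain. Where 4 values stand in a row below, they are those of Mixed-1 and Mixed-2, followed by B6-1 and B6-2. Whole liver was used, so each value averages over all of its cell types.

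Ribosomal proteins assemble with ribosomal RNA into the small (Rps) and large (Rpl) subunits of the cytosolic ribosome. Nearly all are needed in every growing cell, and their genes are classic housekeeping genes with CpG-rich starts, short introns and many processed pseudogenes elsewhere in the genome. A few paralogs are known from restricted tissues or conditions: Rpl10l and Rpl39l from male germ cells, Rpl3l from heart and skeletal muscle, and Rps27l as a target of p53. Methylation of a CpG-rich start is generally associated with a silent gene.

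The contrast within the family is seen in the DNA from 150 bases before the start to 10 bases after it, printed here for Rpl9 and Rplp2 as members read at many CpGs, and for 3 paralogs. Capitals mark the CpGs read at least 10 times in all 4 mice. The sequences are those of RefSeq on GRCm38, 5′ to 3′ along the transcript: Rpl9 from chr5:65391422-65391581 (minus strand), Rplp2 from chr7:141447501-141447660 (plus), Rps27l from chr9:66945936-66946095 (plus), Rpl39l from chr16:10170078-10170237 (plus) and Rpl10l from chr12:66284392-66284551 (minus).
Rpl9: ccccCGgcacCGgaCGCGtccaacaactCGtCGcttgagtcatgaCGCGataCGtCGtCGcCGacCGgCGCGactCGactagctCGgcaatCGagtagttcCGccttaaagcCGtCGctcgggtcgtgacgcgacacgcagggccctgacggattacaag
Rplp2: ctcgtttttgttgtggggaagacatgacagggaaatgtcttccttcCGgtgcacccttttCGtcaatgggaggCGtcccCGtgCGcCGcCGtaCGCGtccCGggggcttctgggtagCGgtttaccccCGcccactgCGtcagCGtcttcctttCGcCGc
Rps27l: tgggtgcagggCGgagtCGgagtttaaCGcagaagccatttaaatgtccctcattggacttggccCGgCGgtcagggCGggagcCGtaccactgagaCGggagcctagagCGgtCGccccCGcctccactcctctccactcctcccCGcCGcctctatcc
Rpl39l: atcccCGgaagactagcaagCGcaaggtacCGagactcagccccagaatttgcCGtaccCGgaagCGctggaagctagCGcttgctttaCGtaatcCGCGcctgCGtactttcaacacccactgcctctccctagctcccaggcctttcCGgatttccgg
Rpl10l: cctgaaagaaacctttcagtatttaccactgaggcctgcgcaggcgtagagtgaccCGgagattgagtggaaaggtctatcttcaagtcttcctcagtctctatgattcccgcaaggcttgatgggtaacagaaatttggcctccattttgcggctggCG

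In the Rpl9 stretch, 21 of 27 CpGs were read and their 30 cytosines averaged 0.189% methylation, the highest at 1.85%. In the Rplp2 stretch, 16 of 17 CpGs averaged 0.0953%. The Rps27l stretch was as low, at 0.0990% over 13 of 13 CpGs. The 12 of 13 CpGs read before Rpl39l were all methylated: the 4 mice stood at 87.1%, 92.5%, 92.4% and 89.1%, and the lowest of the 17 cytosines was at 77.0%. Rpl10l had 2 CpGs read in its stretch, with a mean of 93.4%.

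Of the 77 members, 56 had a promoter in the RefSeq table at the start used here, from 250 bases before it to 50 after. Over the 52 of these without the 4 paralogs, the median was 22 CpGs, against 14 in the promoters of 16034 other genes. The MspI site CCGG, a cut site of the assay, was found in 49 (94.2%), against 63.5% of the others. The Sp1 motif GGGCGG was found on either strand in 29 (55.8%, others 47.8%), the ETS motif CCGGAA, which contains CCGG, in 26 (50.0%, others 19.7%), and the YY1 core ATGGCG in 15 (28.8%, others 11.4%). A transcript that starts with C and 4 further pyrimidines, the terminal oligopyrimidine form that ties translation of ribosomal protein mRNAs to growth signals, was annotated in 12 (23.1%) and in 2.05% of the others. Among the 12 were Rps6, Rplp2, Rpl38, Rps10, Rps18 and Rpl35. These are matches of letters at annotated starts, not mapped binding sites or measured transcript ends.

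Promoters were taken as the cytosines within 1000 bp of a curated TSS, and 73 members had at least 5 such cytosines (5 to 94, median 44). Their promoters were unmethylated with few exceptions: 68 of 73 were below 5%, and the median gene stood at 0.184%. The mean over the 73 genes was 4.30%, 4.41%, 4.31% and 4.38% in the 4 mice, or 4.35% ± 0.0539 (SD, n = 4). That mean was carried by Rpl10l, Rpl39l and Rpl3l. Without the paralogs, 69 genes averaged 0.893%, 0.861%, 0.838% and 0.870%, or 0.865% ± 0.0224 (SD, n = 4). Of these 69 genes 62 were below 1%, 67 below 5% and 1 at or above 20%.

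**Figure D1:**
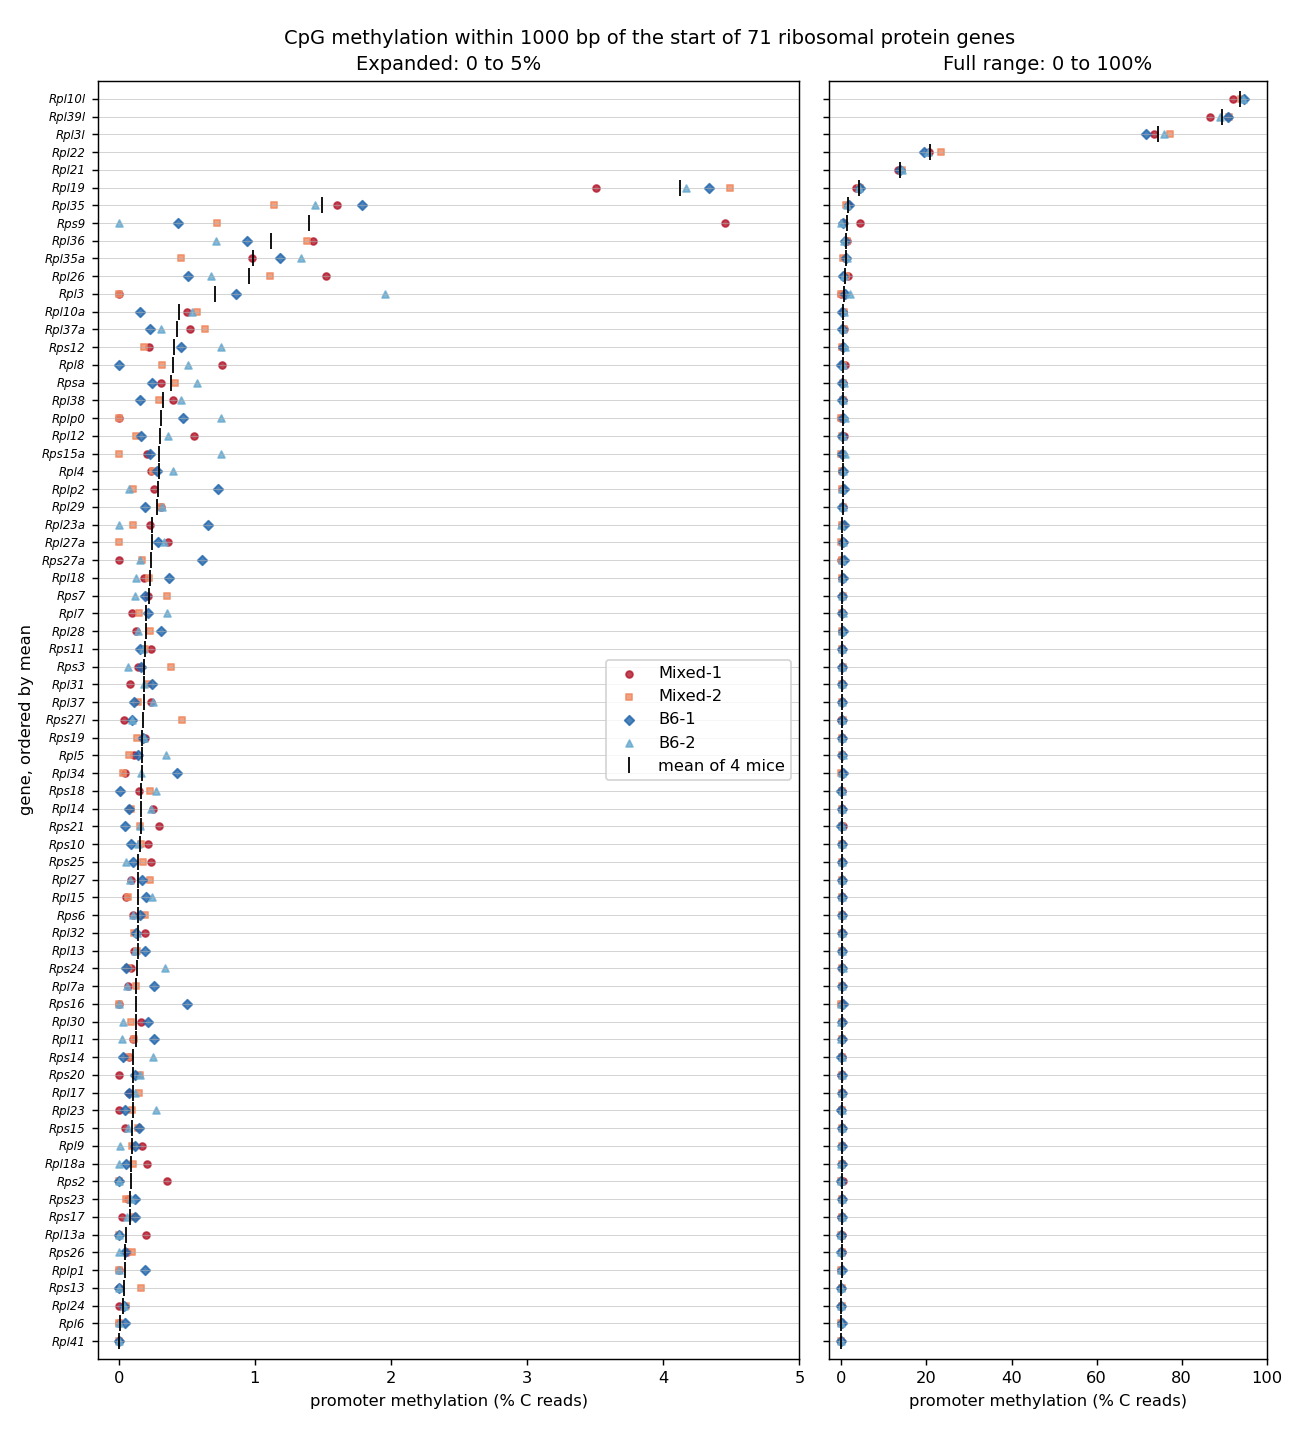
Promoter methylation in percent of C reads for 71 of the 73 ribosomal protein genes with a value, 1 row a gene and 1 point a mouse, with the mean of 4 mice as a black bar. The left axis is expanded to 5% and the right axis runs to 100%. Rpl10l, Rpl39l and Rpl3l lie at 74.5% to 93.8%, Rpl22 at 20.9% and Rpl21 at 13.9%, and the other 66 drawn lie below 5%.

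Among the small subunit genes, 27 of 30 had a value and all 27 were below 5%, with a median of 0.164%. Rps6, the substrate of S6 kinase, was read at 84 cytosines and stood at 0.108%, 0.193%, 0.159% and 0.109%. Rps19, a gene often mutated in Diamond-Blackfan anaemia, stood at 0.196%, 0.134%, 0.176% and 0.189%. Both were low in every mouse, and their ranges over the mice were 0.0844 and 0.0618 percentage points. Rps3 had a mean of 0.189%, Rps2 of 0.0891% and Rps14 of 0.108%. Rpsa, which also serves as a laminin receptor, had a mean of 0.385%. Rps28 had 3 cytosines, too few for a promoter value, and all 3 were at 0 in the 4 mice.

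The 3 stalk genes encode the acidic arm that recruits translation factors to the ribosome. Rplp0 stood at 0 in both Mixed mice and at 0.475% and 0.755% in the B6 mice over 19 cytosines. Rplp1 had a mean of 0.0493% over 7 cytosines, and Rplp2 of 0.292% over 45. The B6 mice were above the Mixed mice for Rplp0, a difference of 0.532 points in the share of pooled reads that had an unadjusted p = 0.0471 in the moderated logistic model across all promoters and an adjusted p = 1.

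Of the large subunit, 43 of 44 genes had a value, with a median of 0.203%, and 38 were below 5%. Rpl5 and Rpl11, which bind the 5S RNA and restrain Mdm2 when ribosome assembly fails, had means of 0.168% and 0.125%. Rpl4, part of the wall of the exit tunnel, stood at 0.294%, Rpl13a at 0.0508% and Rpl38 at 0.327%. Rpl41, the smallest ribosomal protein, had no C at any of 14 cytosines: 0 of 650, 745, 702 and 760 cytosine calls in the 4 mice. Neighbouring cytosines share reads, so the limit was set on a single cytosine: 0 of 254 reads over the 4 mice allows up to 1.18%, for counting error only.

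The genes of Diamond-Blackfan anaemia, an inherited failure of red cell production, were no exception. Of 18 listed genes 15 had a promoter value, all 15 were below 5%, and the highest was Rpl35 at 1.495%.

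Pooled over the 62 promoters below 1%, 242 of 129658, 258 of 143346, 405 of 211571 and 400 of 189439 cytosine calls were C, or 0.187%, 0.180%, 0.191% and 0.211%. A read gives a call for each cytosine it covers, so these calls are not independent and no interval was set on them. Unconverted cytosines and base errors are read as C too. The paper reports bisulfite conversion slightly short of complete in each library, by a margin of the same order as these values. The part of unconverted cytosines and base errors in values this low was not tested, so small differences between such promoters may not be methylation.

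The promoters of Rpl10l, Rpl39l and Rpl3l were methylated in every mouse. Rpl10l (chr12:66283379-66284401) stood at 92.1%, 94.0%, 94.6% and 94.5% over 19 cytosines. Rpl39l (chr16:10170197-10174911) stood at 86.7%, 91.1%, 90.9% and 89.1% over 24 cytosines. Rpl3l (chr17:24727826-24736143) stood at 73.4%, 77.2%, 71.5% and 75.9% over 24 cytosines, all of them downstream of its first start. Within 1000 bp of a start, the 67 cytosines of the 3 genes averaged 85.3% ± 1.47 (SD, n = 4), and 0 of 67 were below 20% in the mean of the mice. The spread between mice was widest in Rpl3l, where 1 cytosine 448 bp downstream was at 50%, 75%, 9.09% and 56.2% in the 4 mice.

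CpG density differed among the 3. The start of Rpl10l had an observed to expected CpG ratio of 0.720 within 500 bp, in the range of the unmethylated members, whereas Rpl39l had 0.550 and Rpl3l 0.184. Rps27l, the p53 target, was the 1 paralog of the list with an unmethylated start: 0.0408%, 0.468%, 0.0970% and 0.0989% over 57 cytosines. On chromosome 17 the unmethylated and methylated forms lie close together. The start of Rps2, at 0.0891%, is 7763 bp from that of Rpl3l, at 74.5%. Rps4l, also on the list of paralogs, is annotated by RefSeq as a pseudogene and was not a member.

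**Figure D2:**
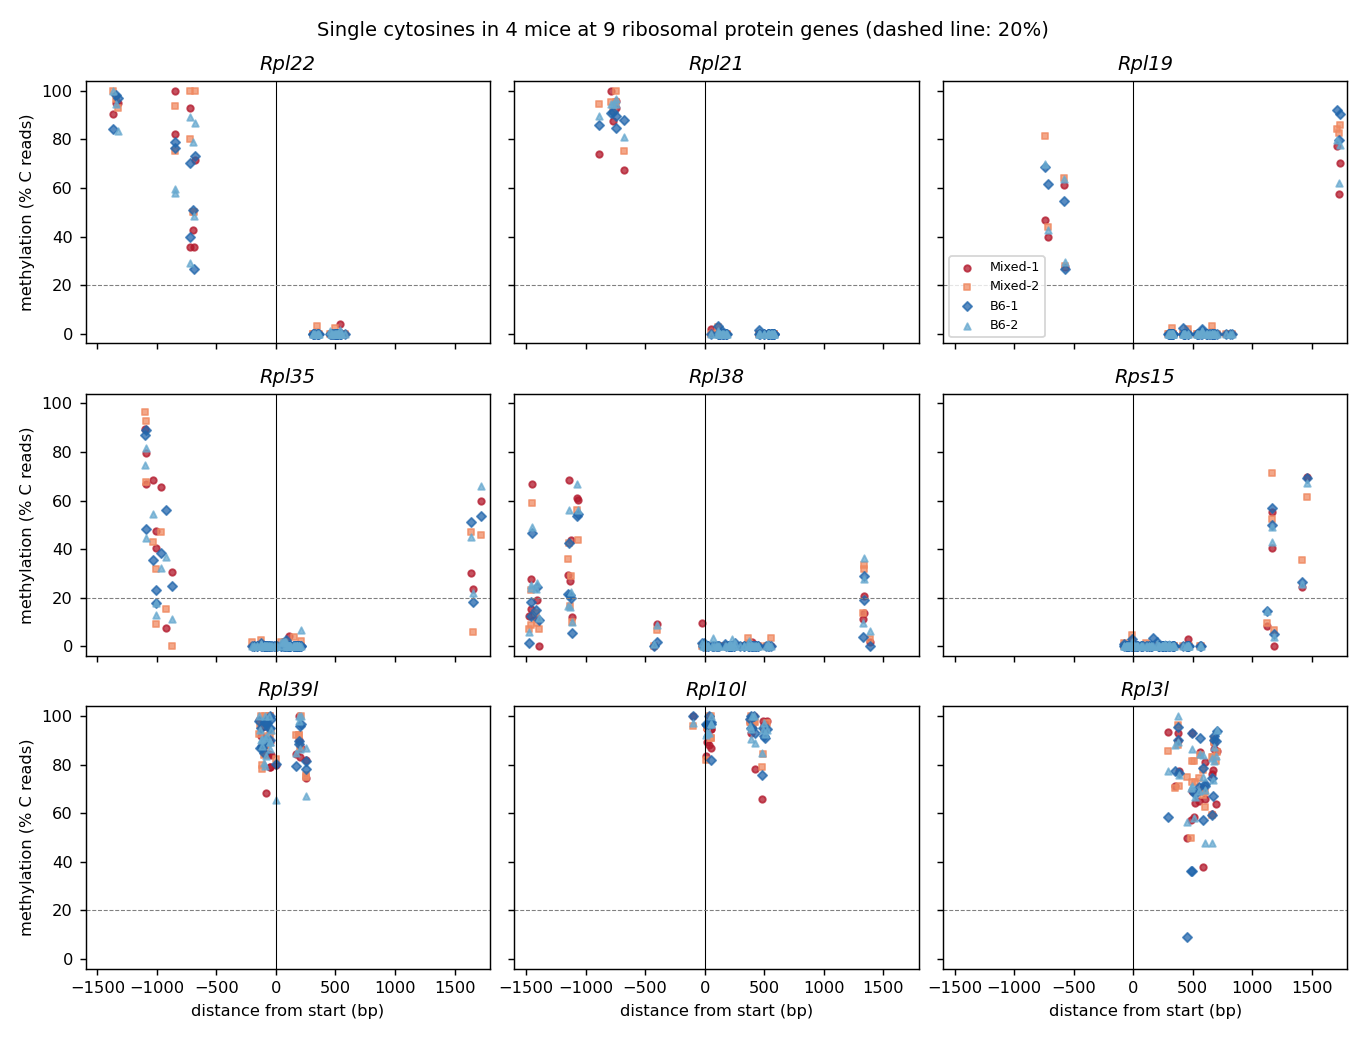
Methylation of single cytosines in percent of C reads against distance from the start in bp, for 9 genes, with 1 point a mouse. In Rpl22 and Rpl21 methylated CpGs upstream give way to CpGs near 0 over a gap without reads, Rpl19, Rpl35, Rpl38 and Rps15 have intermediate CpGs at their edges, and the cytosines of Rpl39l, Rpl10l and Rpl3l lie above 20% but for 1 point of Rpl3l at 9.09%.

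In Rpl22, Rpl21 and Rpl19 the promoter value joined cytosines near 0 downstream of the main start to upstream ones at 20% or above. The upstream cytosines ran from 40.3% to 96.1% in Rpl22, 77.9% to 95.2% in Rpl21 and 27.8% to 66.6% in Rpl19, so some were intermediate. Between the 2 kinds no cytosine was read in all mice, so the level at the start itself is not known. Rpl22 (chr4:152324436-152334082), which has 2 curated starts, had a promoter value of 20.7%, 23.4%, 19.3% and 20.3%. Of its 36 cytosines, the 10 that lie 678 to 1365 bp upstream of the main start averaged 75.1%, while the 26 from 309 to 577 bp downstream averaged 0.117%. Those 10 lie within 1000 bp of the upstream start, 3 of them before it and 7 in an intron of its transcript. Rpl22 was at 16.7% with a minimum of 20 reads and at 12.7% in pooled reads, below the 20% bound.

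Rpl21 (chr5:146832890-146837032) stood at 13.3%, 14.2%, 13.7% and 14.2%. Its 6 cytosines 679 to 883 bp upstream averaged 89.6%, and its 33 cytosines from 53 to 582 bp downstream averaged 0.0903%. In Rpl19 the 4 cytosines from 573 to 744 bp upstream averaged 50.6%, and the 46 from 292 to 826 bp downstream averaged 0.0830%. With the window set to 500 bp, 68 of the 69 genes were below 5%, and Rpl22 was the 1 left at or above 20%, through the cytosines at its upstream start.

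By distance from the main start and without the paralogs, methylation rose with distance on both sides. The 1879 cytosines within 500 bp downstream averaged 0.143% ± 0.0284 (SD, n = 4), and the 768 within 500 bp upstream 0.216% ± 0.0422. From 500 to 1000 bp the sides parted: 0.397% ± 0.154 downstream over 231 cytosines of 31 genes, and 9.96% ± 0.307 upstream over 167 cytosines of 18 genes. The upstream value came from 23 cytosines at or above 20% in 6 genes, among them Rpl22, Rpl21, Rpl19, Rpl35 and Rpl36. From 1000 to 2000 bp the means were 16.7% ± 0.652 downstream and 20.5% ± 0.589 upstream, and from 2000 to 5000 bp within the genes it was 67.8% ± 1.11 over 20 cytosines of 7 genes.

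Of 2648 cytosines within 500 bp of a start, 2088 (78.9%) had no C read in any mouse. The 4 at a mean of 5% or above were in Rpl35a (11.5%, 486 bp upstream), Rpl10a, Rpl38 and Rpl26, all over 400 bp upstream. By annotation, 435 cytosines in 5′ UTR exons averaged 0.149% ± 0.0627 and 1598 in introns 1.25% ± 0.0493 (SD, n = 4). The 136 in coding exons averaged 8.52% ± 0.243, and the 6 in 3′ UTR exons, of 2 genes, 90.9% ± 2.58. These classes lie at different distances from the start, and annotation was not separated from distance.

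**Figure D3:**
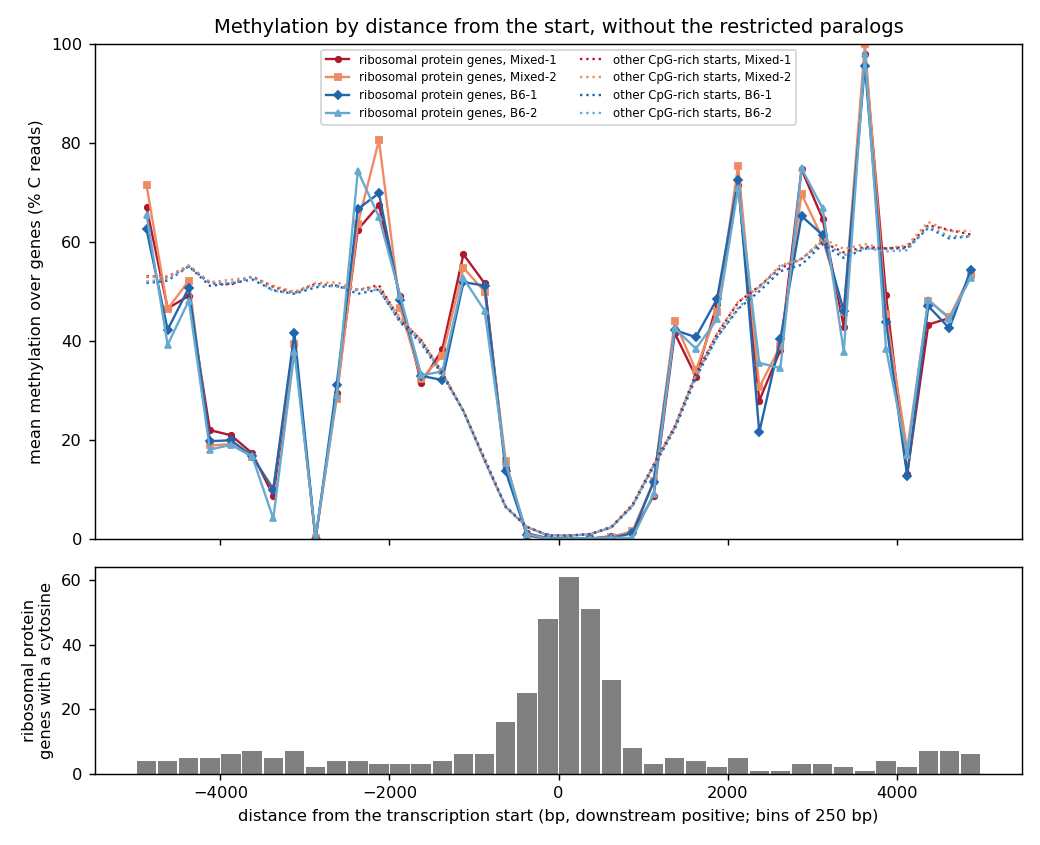
Upper plot: mean methylation over genes in percent of C reads by distance from the start in bins of 250 bp, 1 line a mouse, for ribosomal protein genes without the paralogs (solid) and for other genes with a CpG-rich start (dotted). Lower plot: number of ribosomal protein genes with a cytosine in each bin. The lines of the 4 mice lie together near 0 within 500 bp of the start, and beyond 1000 bp the solid lines rest on few genes.

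Other autosomal protein-coding genes served as the comparison. The 12944 of them with a promoter value averaged 5.48% ± 0.0397 (SD, n = 4), with a median gene at 0.285%, 85.5% of genes below 5% (members 93.2%) and 6.91% at or above 20%. The mean of the members minus that of the others was -1.13 ± 0.0642 points, below 0 in 4 of 4 mice (exact sign-flip permutation test over mice, two-sided p = 0.125, the smallest that 4 mice allow). This difference depended on the settings. It was 0.0429 points with windows of 500 bp (above 0 in 2 of 4 mice, exact permutation p = 0.5), -2.83 with 2000 bp, -0.276 at a minimum of 20 reads and -4.72 with at least 1 cytosine a gene. It also depended on the paralogs and on the genes compared. The 9540 others with a CpG-rich start averaged 1.49% ± 0.0272 with a median of 0.197% and 94.5% of genes below 5%, and all members together lay 2.86 points above them. For the 69 members without the paralogs the difference was -0.625 ± 0.00775 points, below 0 in 4 of 4 mice (exact permutation p = 0.125).

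The unmethylated zone around a start was bounded by the nearest CpG at or above 20% on each side, searched over 10000 bp. In the mean of the 4 mice it was closed on both sides in 31 members and open on at least 1 side in 40. In each mouse the zones closed there, 33 members in all, had a median width of 8807, 8294.5, 8294.5 and 8375 bp, or 8443 ± 246 bp (SD, n = 4). For a zone that closed, this is an upper bound, because ERRBS reads few CpGs between CpG-rich parts. The nearest methylated CpG can be far beyond the true edge. Open zones are left out of the median, so it is no bound for the whole family. The outermost unmethylated CpGs of the closed zones were 812 ± 36.1 bp apart. The 33 include Rpl3l, through a zone of 92 bp in B6-1 alone. Without the paralogs, 32 members had a median of 8807, 8294.5, 8386 and 8375 bp.

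The narrowest closed zones were those of Rpl19 (2287 bp), Rpl38 (2399 bp), Rpl35 (2561 bp) and Rps10 (2628 bp). The widest were those of Rpl36 (16478 bp), Rpl17 (15532 bp) and Rpl35a (14542 bp). Rpl36 also had 2 single cytosines at or above 20%, 658 and 709 bp upstream. With both strands added, their CpGs were below 20% in the mean of the mice, so the zone passed over them. In Mixed-2 the zone of Rpl36 was 9458 bp, narrower than those of Rpl17 and Rpl35a, and in Mixed-1 no closed zone was found at Rpl38. In the 16478 bp zone of Rpl36 the unmethylated CpGs spanned 4396 bp, which includes CpGs near a predicted start upstream.

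A lower bound came from the run of CpGs below 20% with no gap of over 1000 bp between neighbours, a measure added after the gaps had been seen. It was found in 71 members, with a median width over genes of 624 bp, 671 bp, 624 bp and 671 bp, or 648 ± 27.1 bp (SD, n = 4). The median stretch ran from 157 bp upstream to 445 bp downstream and held 31 CpGs. The start itself lay inside the stretch in 47 members. In 20 members the whole stretch lay downstream of the start, and in 4 upstream of it. The stretch reached farther downstream than upstream in 50 of 71 members (70.4%), and in 72.5% of the 12567 other genes with such a stretch. Stretches wholly downstream are counted here, so the count depends also on where CpGs were read. The stretch was the same in all 4 mice in 66 members, and differed in Rps9, Rps27l, Rpl35, Rpl36 and Rpl38.

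The longest stretch was at Rpl7, 2327 bp with 158 CpGs from 1958 bp upstream to 369 bp downstream. Rpl38, a gene known for its part in the translation of Hox mRNAs, had the next longest, 1754 bp. The shortest, 40 bp at Rplp1, 47 bp at Rps16 and 47 bp at Rpl3, ended at gaps on both sides. A methylated CpG ended the stretch on both sides in 2 members, Rpl19 and Rpl38. In Rpl35 the upstream edge was graded and moved between mice, so the stretch was 414, 1136, 414 and 1091 bp wide.

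**Figure D4:**
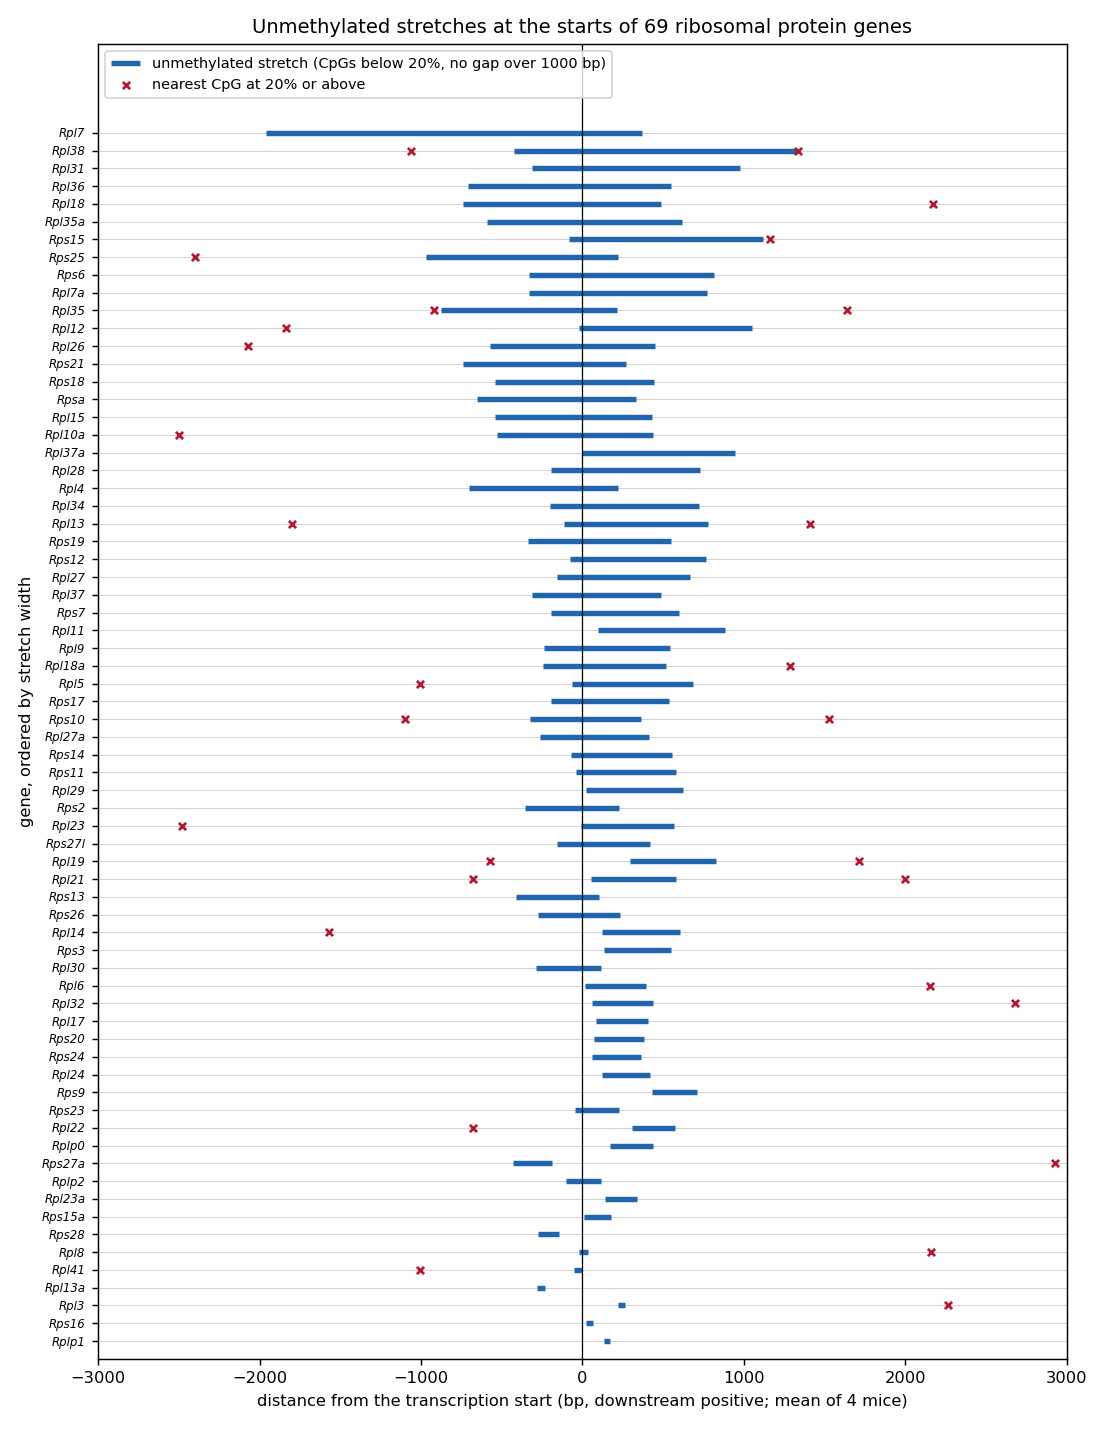
Unmethylated stretch of 69 of the 71 members that have one (blue bar, CpGs below 20% with no gap over 1000 bp) and the nearest CpG at or above 20% (red cross), by distance from the start in bp, in the mean of 4 mice. Crosses beyond 3000 bp are not drawn. Most bars end without a cross beside them, so their ends are ends of the reads, and 49 of the 69 bars reach farther downstream than upstream. Some bars do not cross the start.

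Zone widths did not separate members from other genes by every measure. The bounded zones of members were 1340 ± 308 bp wider in the median than those of 4548 other genes (wider in 4 of 4 mice, exact sign-flip permutation p = 0.125). The difference was 786 bp against the 3115 other genes with a CpG-rich start and 2697 bp at a minimum of 20 reads, also with 4 of 4 mice wider. Between the outermost unmethylated CpGs the difference was 70.0 ± 44.6 bp, and the stretches of other genes had a median of 628 ± 3 bp. Against other genes with a CpG-rich start, whose stretches had a median of 721 ± 3.86 bp, those of members differed by -73.2 bp (exact permutation p = 0.125).

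Gene bodies were read thinly. Members are short, with a median span of 3183 bp, and 5 had at least 5 cytosines inside the gene and over 1000 bp from every curated start. Rpl8 stood at 92.0%, 94.7%, 95.3% and 95.4%, over coding and 3′ UTR exons. Rpl35 stood at 40.9%, 34.9%, 41.6% and 44.8%, in an intron, and Rps15 at 33.1%, 39.6%, 37.1% and 33.9%. Rpl8 was methylated in every mouse, and the other 2 were intermediate in every mouse.

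The values of Rpl19 (7.27%) and Rpl36 (0.350%) came mostly or wholly from cytosines upstream of the curated start, inside predicted longer transcripts. The 5 genes averaged 35.7% ± 0.896 (SD, n = 4), which was 34.2 ± 0.928 points above their promoters. Their difference from the bodies of 10366 other genes, at 67.1% ± 0.295, was -31.4 points. Each of these differences had an exact sign-flip permutation p = 0.125, with the same direction in 4 of 4 mice. Both depend on the 5 genes. Without cytosines near any other start, 3 genes remained at 56.9% ± 1.32, which was 56.3 points above their promoters and differed from other genes by -11.96 points. With at least 1 cytosine, 17 genes differed from other genes by -20.6 points. Other genes no longer than the longest member averaged 53.9%, from which the 5 genes, Rpl19 and Rpl36 included, differed by -18.2 points.

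With at least 1 cytosine downstream of the main start, 15 constitutive members had a body value and averaged 55.2% ± 1.45 (SD, n = 4). At the high end were Rpl8 (94.4%), Rpl18 (92.8%), Rpl22 (89.4%, in its 3′ UTR) and Rpl19 (82.0% at 4 cytosines), and 4 of the 15 were at or above 80%. At the low end were Rpl12 (0.746% at 1 cytosine), Rpl38 (16.3%), Rps10 (28.8%) and Rpl3 (29.0%). Rpl8 had 0.397% at its promoter and 94.4% in its body, about 2158 bp downstream. In Rps15 the edge lay inside the gene, where a cytosine 1120 bp downstream was at 11.8% and 1 at 1164 bp at 50.3%.

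Between the Mixed and the B6 mice, the mean over the 73 promoters differed by 0.0108 points, less than the SD of 0.0539 over the 4 mice (two-sided exact permutation test, p = 1, and 2 against 2 mice cannot give less than 0.333). Of the 69 promoters without the paralogs, 12 (17.4%) had both Mixed mice above both B6 mice and 11 (15.9%) the reverse, while over all 13017 promoters these shares were 17.6% and 17.2%.

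A logistic model with moderated spread was fitted to all 1276597 common cytosines. It called 73 of them (0.00572%) at an adjusted p under 0.01 and a difference of at least 25 points, and 0 of the 3508 cytosines of the members. At an unadjusted p under 0.05 it found 19 of the 3508, a share of 0.542% where all cytosines gave 2.03%. These shares do not compare strain variation, because a cytosine at 0 in all 4 mice cannot reach that bound. Without the paralogs, 2338 of the 3048 member cytosines within 1000 bp of a start were at 0 in all mice. Of 13017 promoters 0% were called, and of 10371 bodies 0%. At an unadjusted p under 0.05, 4 of the 73 member promoters were found (5.48%, all promoters 3.98%), namely Rpl36, Rpl26, Rpl21 and Rplp0, and 0 of the 5 bodies (all bodies 15.5%). Fisher's exact test on pooled reads and limma on log2 ratios also called 0 members. Over all features limma called 0, so its 0 says nothing of the members, and Fisher's exact test called 1612 cytosines, 2 promoters and 6 bodies. At an unadjusted p under 0.05 limma found 17.5% of member cytosines (all 14.7%) and 13.7% of member promoters (all 7.78%). Fisher's exact test found 1.20% of member cytosines (all 5.3%) and 16.4% of member promoters (all 21.7%).

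The widest strain difference of a single cytosine in the family was at the upstream edge of Rpl35. This cytosine, 922 bp upstream, stood at 7.69%, 15.4%, 56.3% and 36.8%, from 13, 13, 16 and 19 reads. The difference of 35.0 points did not pass adjustment (unadjusted p = 0.0347, adjusted p = 1 in the moderated logistic model). The next 2 lay in the methylated promoter of Rpl3l, 448 and 498 bp downstream, with the Mixed mice higher by 29.8 and 28.9 points (unadjusted p = 0.220 and 0.126, adjusted p = 1 in the same model) and B6-1 lowest at both. In the body of Rpl6, 2151 bp downstream, the mice stood at 56.0%, 84.2%, 38.5% and 45.2% (unadjusted p = 0.00900, adjusted p = 1). The groups did not overlap at these cytosines of Rpl35 and Rpl6, where the direction was opposite, nor at the Rpl3l cytosine 498 bp downstream. They were also apart, with the Mixed mice higher, at further cytosines of Rpl22, Rpl36 and Rpl35. That other Rpl35 cytosine, farther upstream, stood at 47.4%, 31.7%, 17.7% and 12.9%, so the upstream edge of Rpl35 had no single strain direction. All were picked for wide differences, and the share of all cytosines with such separation was not counted.

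The promoters with the largest range between mice were those of Rpl3l (5.69 points), Rps9 (4.45), Rpl39l (4.40) and Rpl22 (4.08). Rps9 stood at 4.45%, 0.721%, 0.435% and 0, with Mixed-1 alone above 1%. The Mixed-1 value came mainly from 3 cytosines of a coding exon, each at 20% of 10 reads, the least that the files hold. Of the 69 promoters without the paralogs, 65 had a range of under 1 point.

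Other genes of ribosome production and translation were described for context from lists. Of the 6 ribosomal genes outside the symbol rule, among them Fau, Rack1 and Rpl36al, 5 were below 5% and Rpl7l1 was at 7.31%. Of 68 mitochondrial ribosomal protein genes with a value, 63 were below 5%, with the highest at Mrps12 (28.5%) and Mrpl3 (19.2%). Among assembly factors 21 of 24 were below 5%, with Nop10, part of the pseudouridine synthase particle, at 93.2% in the mean of the mice. Among RNA polymerase I genes 6 of 8 were below 5%, and Taf1c was at 39.7%. All 6 elongation factor genes were below 5%. For the high genes of these lists the positions of the cytosines were not examined, so the level at the start itself is not known. The share below 5% was 85.5% in all other genes and 94.5% in those with a CpG-rich start.

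Markers of tissues gave a check of the tissue of limited use, since methylation near a start is not expression. Of 8 hepatocyte markers 3 had a value: Apoa2 at 0.651%, Hnf4a at 28.7% and Fgb at 29.95%. The skeletal muscle genes stood at 9.87% (Myod1), 32.3% (Acta1) and 84.6% (Ckm), and 0 of 4 leukocyte markers had a value. A gene methylated in some cell types of the liver and not in others cannot be told apart from one methylated on some chromosomes of every cell.

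**Figure D5:**
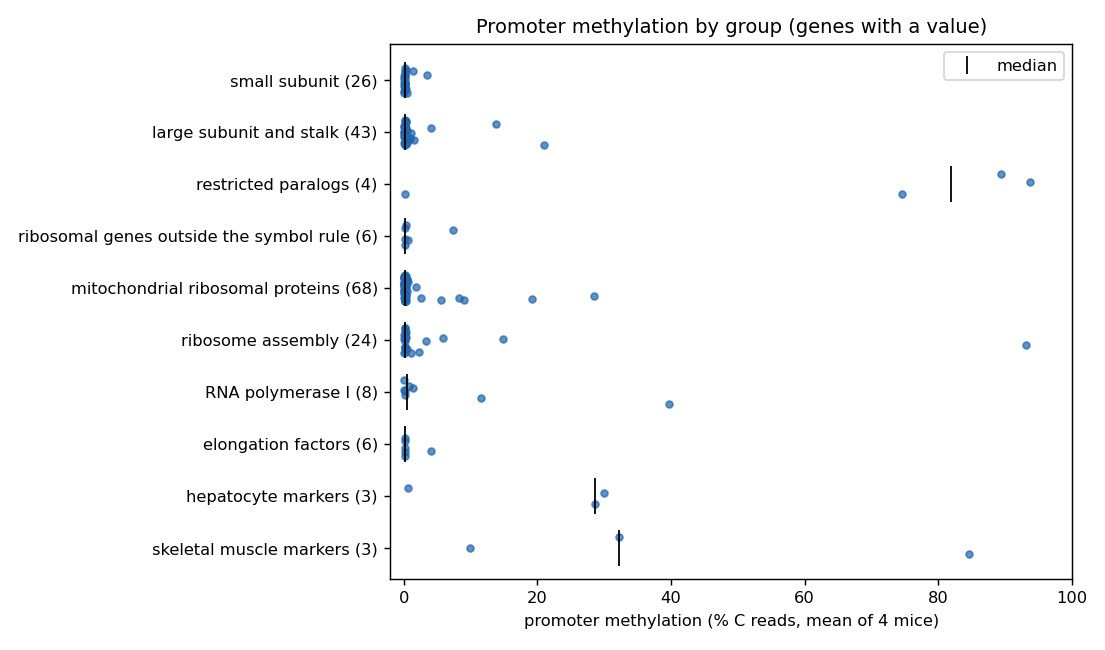
Promoter methylation in percent of C reads, mean of 4 mice, with 1 point a gene and the median as a black bar, for each group of genes with the number of genes in brackets. The points are spread vertically for legibility. The medians of the ribosomal, assembly, elongation and mitochondrial groups lie near 0, and 3 of the 4 restricted paralogs lie at or above 74.5%.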

How the data were processed

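ERRBS data of 4 mouse livers were used. The authors mapped reads to mm10 with BSMAP (the submitters' notes name Bismark and SAMtools) and deposited, for each CpG cytosine and strand with at least 10 reads, the coverage as a count of reads and the percent of C and of T reads. Coverage summed over the 1329761 to 1557387 cytosines of a mouse was 60654199 to 99215153, which counts a read once for each cytosine it covers. The 1276597 cytosines in all 4 mice were placed on GRCm38 with RefSeq, and C reads were recomputed from percent and coverage. A gene value is the mean over its cytosines, at least 5, and zones used CpGs with both strands added. Strains were compared by exact permutation and, for cytosines, promoters and bodies, by a quasi-binomial logistic model moderated with limma 3.58.1 (R 4.3.3, data.table version 1.17.8), with Benjamini-Hochberg adjustment. Its prior came from features at 10 to 90% C reads, a range set after a test on simulated data in which features near 0 masked the rest. The remaining steps were run in Python 3.11.15 (scipy 1.17.1, pandas 2.3.3, numpy 2.4.6, matplotlib 3.10.9).

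Members and lists were chosen with earlier results of these data known. Some items are not reported here by name. Named genes were members at or above 20%, the extremes of zone width, body and range, called members, the paralogs, a list of well-known members and, on other lists, those highest; cytosines singled out in the text were chosen after their values were seen. Alternatives covered coverage, windows, starts, strands, comparison genes, zone bounds and single mice. A start was CpG-rich at a GC content of 50% or more and an observed to expected ratio of 0.6 or more within 500 bp. Same-numbered mice did not deviate together (correlation 0.000281 over 148758 cytosines).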

Additional observations from a re-analysis of the deposited data

Results flagged for a closer look

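Cytosines outside the autosomal members also carried signal. On chromosome X, where the members were left out of all comparisons, the promoter of Rpl39 averaged 3.93% over 11 cytosines (4.35%, 3.68%, 3.01% and 4.70% in the Mixed and then the B6 mice), with C at 63 of 1406 cytosine calls. Rps4x had C at 1 of 820 calls and Rpl36a at 1 of 644, and Rpl10 had no common cytosine. Of 270 annotated ribosomal protein pseudogenes on the autosomes, 44 had a common cytosine, and their mean was 88.5% ± 0.791 (SD, n = 4), with 40 above 80% and 0 below 20%. Only 18 of the 44 had at least 5 cytosines, the number asked of the members, so the other values rest on fewer. Rps4l, annotated as a pseudogene, was at 41.6% over 40 cytosines (41.4%, 39.5%, 41.4% and 44.2% in the same order of mice).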

How the results depend on the processing

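The mean over the 73 promoters was 4.50% with strands merged, 4.43% with all RefSeq starts, 0.865% without the paralogs, 3.98% with windows of 500 bp, 5.31% with 2000 bp, 4.14% with pooled reads and 4.29% with at least 1 cytosine. The strain difference changed sign at a coverage of 20 (-0.0306) and with pooled reads (-0.103), and lay between -0.0464 and 0.0681 points without 1 mouse; with the replicate block, which pairs mice that share only a number, it was 0.0108. The difference from other genes turned to 0.0429 points with 500 bp (exact permutation p = 0.5) and 2.86 against CpG-rich starts, and was -0.276 at a coverage of 20, -0.682 with strands merged and -1.98 with all RefSeq starts. Bodies averaged 43.9% with strands merged, 56.9% with all RefSeq starts or without other starts, 48.9% with at least 1 cytosine and 32.3% from 2000 bp. Zones were 10217 bp wide at a coverage of 20, 8174 bp with all RefSeq starts, 9195 bp with a bound of 50%, 8784 bp when ended by 2 CpGs in a row, 812 bp between outermost unmethylated CpGs and 648 bp as stretches, whose difference from CpG-rich starts was -73.2 bp; in zones closed in all 4 mice members were 1094 bp wider. The cause of these shifts was not tested, beyond the genes that each setting leaves. The model called 0 members under each alternative, the replicate block included; over all cytosines the block called 690, Fisher's exact test 1612 and limma on log2 ratios 0. Cytosines not read at least 10 times in all 4 mice were left out, and the exact tests cannot pass 0.05 with 4 mice.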
